A study of Homo sapiens with 2 samples.

Results

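The genes described here encode 49 components of the transforming growth factor beta (TGF-beta) and bone morphogenetic protein (BMP) pathways, which were chosen by name. They were sorted into 12 ligands, 10 receptors, a group of 10 SMADs and SMURFs, 13 antagonists and 4 target genes. A probe set was taken for a gene when the array's annotation gave that symbol and no other, and 48 of the 49 genes had such a probe set, among 19775 genes named this way on the array. The exception was BMPR1A, which was not analysed here. The study compared 2 arrays of the human hepatocellular carcinoma line PLC8024. Both cultures were the fraction of that line without the surface marker CD133, isolated by cell sorting. The control culture had received an empty lentivirus, and the other one a lentivirus for the microRNA miR-130b (its source label reads transfection instead). Each condition was 1 array, so the values carry no replicate error, no difference was tested, and other differences between the 2 cultures cannot be told apart from the vector.

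TGF-beta, activin and BMP ligands are secreted dimers that bind paired type I and type II receptor kinases. The type I receptor then phosphorylates receptor SMADs, SMAD2 and SMAD3 for TGF-beta and activin or SMAD1, SMAD5 and SMAD9 for BMPs, which enter the nucleus with SMAD4. Latency proteins, secreted traps, inhibitory SMADs, SMURF ubiquitin ligases and nuclear corepressors restrain the signal. In liver, TGF-beta is known for growth arrest, fibrosis and epithelial-mesenchymal transition, and BMPs for the control of iron through hepcidin.

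The overexpressed microRNA pairs with target transcripts mainly through its seed, bases 2 to 8. The mature sequence from RefSeq (GRCh38.p14) is shown because TGFBR1, TGFBR2, ACVR1, BMPR2, SMAD4 and SMAD5 are, from general knowledge, reported or predicted targets of this microRNA family. The seed is in capitals, and 3 further mature sequences that carry the same seed are set beside it. In all, 6 of the sequences searched carried this seed, so not all of them are shown.
hsa-miR-130b-3p: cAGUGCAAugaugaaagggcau
hsa-miR-301a-3p: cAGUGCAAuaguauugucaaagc
hsa-miR-301b-3p: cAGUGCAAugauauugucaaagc
hsa-miR-454-3p: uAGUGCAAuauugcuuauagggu
These sequences differ outside the seed. The level of the mature microRNA was not analysed here.

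All values are log2 expression values, and every difference is the miR-130b array minus the empty vector array on that scale. A gene counted as measured when at least 1 of its probe sets reached 4.88, the median of all values, on its brighter array, and the one of these probe sets with the highest mean stood for it. This left 46 of the 49 genes. The antagonist genes NOG and GREM1 lay below this floor on both arrays, NOG at 3.60 and 3.72 and the brighter GREM1 probe set at 3.32 and 3.13. The only error available is the spread between probe sets of the same gene. Their differences varied around the gene's mean difference with an SD of 0.202, pooled over 6047 genes. This SD between probe sets holds no variation between replicate cultures.

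Of the 46 measured genes, 7 were at least 1.5-fold (0.58 on the log2 scale) lower with miR-130b, 39 lay between the limits and 0 were at least 1.5-fold higher. Among all 13260 measured genes, 2.68% were at least 1.5-fold lower and 0.294% at least 1.5-fold higher. The 7 genes, or 15.2% of those measured, were the ligands BMP2, TGFB2, TGFB1 and INHBA, the secreted FSTL1, the receptor SMAD SMAD9 and the type II receptor BMPR2. The first 3 of these ligands, FSTL1 and SMAD9 were at least 2-fold lower, against 1.52% of all measured genes. TGFB2, INHBA and SMAD9 reached the floor on the empty vector array alone, so they could enter the count only with a lower value on the miR-130b array. The median difference was -0.08 over the 46 genes and 0.03 over all measured genes.

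**Figure D1:**
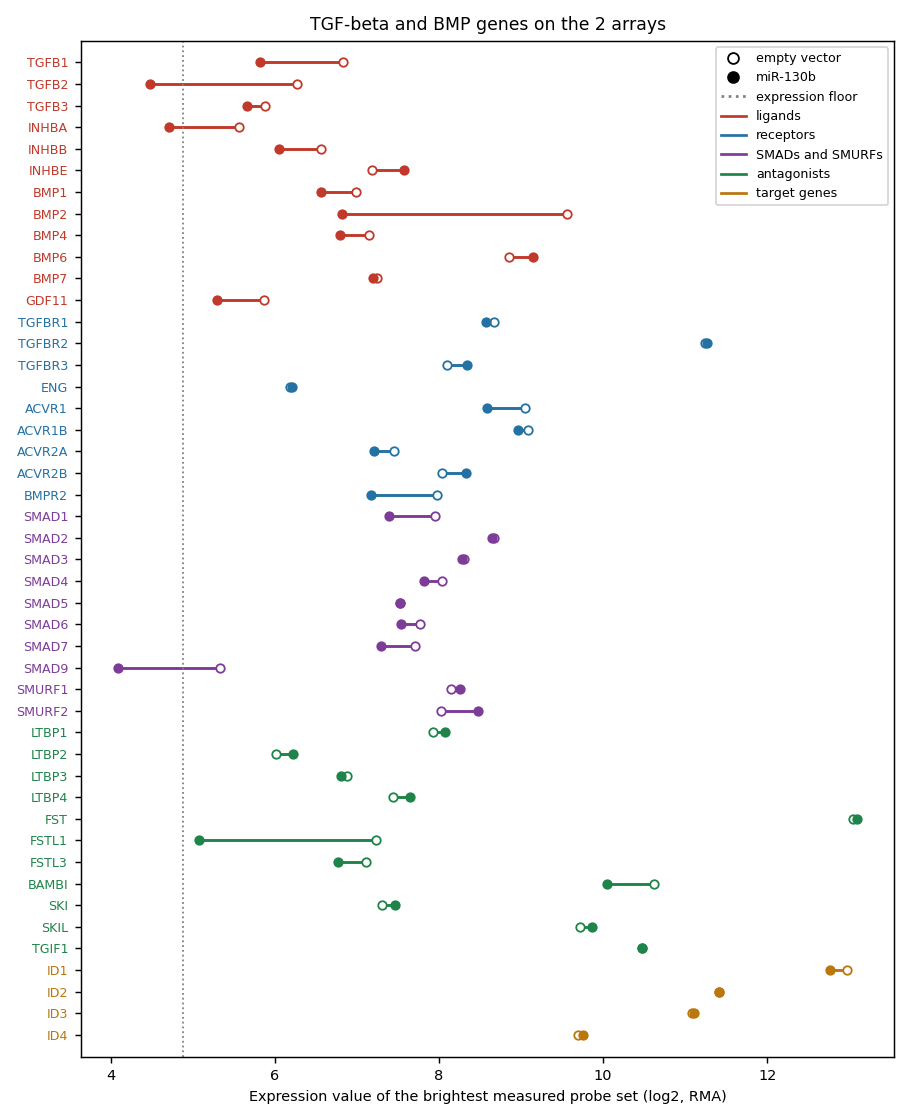
Expression of the 46 measured genes on the empty vector array (open circles) and the miR-130b array (filled circles), log2 scale, 1 array each; colours mark the role and the dotted line is the floor of 4.88. BMP2, FSTL1 and TGFB2 have the longest lines, running from the open circle on the right to the filled one on the left, and ID2, ID3, SMAD5 and TGIF1 overlap. Positions of different genes are not comparable as amounts of RNA.

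Ligands held 4 of the 7 lower genes. This is 33.3% of the 12 ligands, against 2.68% of all measured genes, and TGFB2 and INHBA could be counted only as lower. A difference below 0 was found for 10 of the 12 ligands, 60.9% of the 46 genes and 41.9% of all measured genes. The 10 include BMP1, which is a metalloproteinase, as described below. BMP2, a ligand of the SMAD1, SMAD5 and SMAD9 branch, stood at 9.55 on the empty vector array and 6.82 on the miR-130b array. A second probe set, not used to represent the gene, read 9.20 and 5.97. Both probe sets were thus lower with miR-130b and above the floor on both arrays. The differences were -2.73, or 6.65-fold lower, and -3.23, or 9.38-fold lower. BMP2 ranked 35 from the lowest difference among the 13260 measured genes.

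TGFB2, the TGF-beta isoform that depends most on the co-receptor TGFBR3, stood at 6.27 and 4.48, a difference of -1.79. Where a gene lies below the floor with miR-130b, as here, that value may be background. The size of the difference is then uncertain and no fold is given. Its other measured probe set read 5.31 and 4.50, a difference of -0.81. Of the 3 TGFB2 probe sets below the floor on both arrays, 1 differed by -1.46, another by -0.29 and another by 0.27. TGFB2 was therefore lower in both measured probe sets, and in each of them it was below the floor with miR-130b.

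TGFB1, the most widely expressed isoform, stood at 6.83 and 5.82, a difference of -1.01 or 2.02-fold lower. Its other probe set had the same deposited value, 4.94, on both arrays. The lower value of TGFB1 thus rests on 1 probe set, and the mean of both is -0.51. TGFB3, the remaining isoform, was measured by 1 probe set at 5.88 and 5.67 and differed by -0.21, about the SD between probe sets.

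Among activin subunits, INHBA, which forms activin A, stood at 5.57 and 4.71, a difference of -0.86. An INHBA probe set below the floor on both arrays differed by -0.81 and another by 0.19. INHBB, the activin B subunit, stood at 6.56 and 6.06 and differed by -0.51, under 1.5-fold. INHBE, an activin subunit made mainly in liver, went the other way, at 7.19 and 7.58, a difference of 0.39. The 3 activin subunits thus did not share a direction.

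The other BMP and GDF ligands stayed within 1.5-fold in the probe sets that stand for them. BMP6, the main ligand for hepcidin control in liver, stood at 8.86 and 9.14, and its other measured probe set at 4.86 and 5.42, differences of 0.28 and 0.57. BMP4 differed by -0.35 and BMP7 by -0.05, with 0.14 in a second BMP7 probe set. BMP1, which despite its name is a metalloproteinase that cleaves procollagens and the BMP antagonist chordin, was lower in all 6 measured probe sets, by -0.05 to -0.59. The -0.59, in a dimmer BMP1 probe set, was just past 1.5-fold. GDF11, a ligand of the activin branch, differed by -0.57, just inside 1.5-fold, but by -0.03 and 0.10 in its 2 dimmer measured probe sets.

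**Figure D2:**
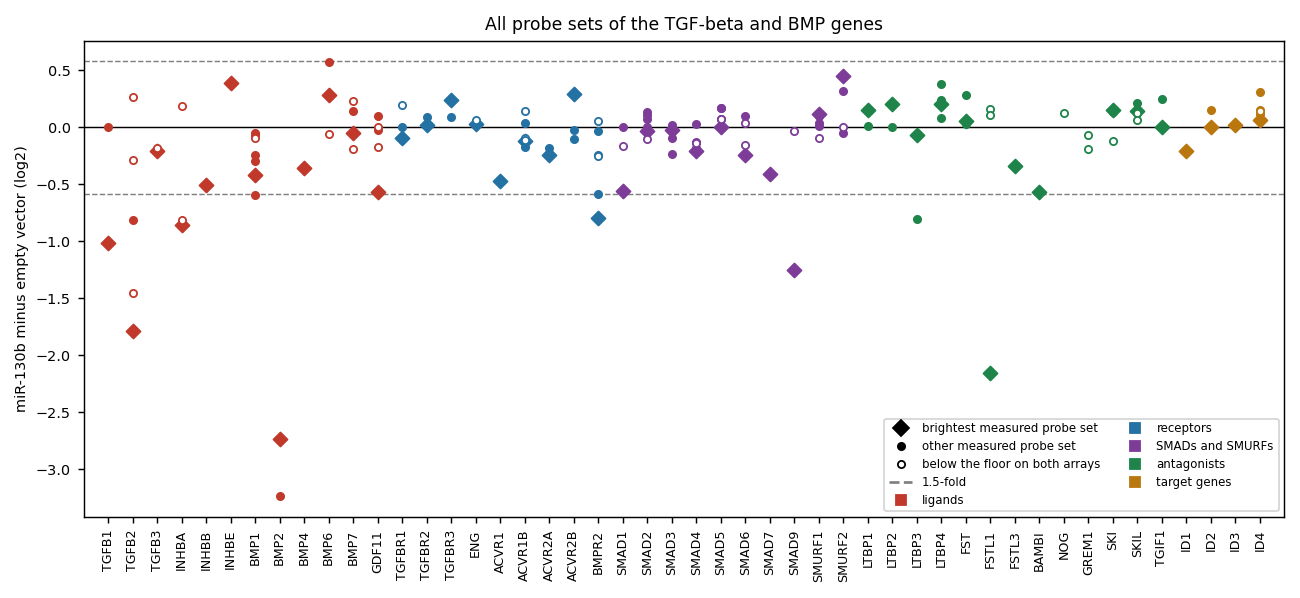
Difference miR-130b minus empty vector (log2) for all 144 probe sets of the 48 genes; diamonds stand for the gene, filled circles are other measured probe sets, open circles lie below the floor on both arrays, and dashed lines mark 1.5-fold. Both BMP2 probe sets lie far below the lower line, whereas FSTL1, TGFB1 and SMAD9 each have 1 low probe set with the others near 0.

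Promoters are shown for TGFB2 and FSTL1, which were lower with miR-130b, and for ID1, a BMP target whose value differed little. Each run holds the 250 bases before the annotated start in RefSeq (GRCh38.p14), read 5′ to 3′ on the gene's strand. Capitals mark matches on either strand to CAGAC (the half-site bound by SMAD3 and SMAD4), GGCGCC (a GC-rich SMAD1 and SMAD5 motif) or TATAAA (the TATA box).
TGFB2 (chr1:218345086-218345335, plus strand): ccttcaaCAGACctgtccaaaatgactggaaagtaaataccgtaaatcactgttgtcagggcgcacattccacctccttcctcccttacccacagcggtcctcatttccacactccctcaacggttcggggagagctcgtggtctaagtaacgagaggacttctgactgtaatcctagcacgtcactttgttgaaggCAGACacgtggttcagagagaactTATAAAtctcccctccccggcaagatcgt
FSTL1 (chr3:120450993-120451242, minus strand): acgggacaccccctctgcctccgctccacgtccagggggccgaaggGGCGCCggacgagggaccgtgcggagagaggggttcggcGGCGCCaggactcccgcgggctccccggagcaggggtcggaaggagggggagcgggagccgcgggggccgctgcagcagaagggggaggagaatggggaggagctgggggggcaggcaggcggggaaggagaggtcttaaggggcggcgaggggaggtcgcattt
ID1 (chr20:31605039-31605288, plus strand): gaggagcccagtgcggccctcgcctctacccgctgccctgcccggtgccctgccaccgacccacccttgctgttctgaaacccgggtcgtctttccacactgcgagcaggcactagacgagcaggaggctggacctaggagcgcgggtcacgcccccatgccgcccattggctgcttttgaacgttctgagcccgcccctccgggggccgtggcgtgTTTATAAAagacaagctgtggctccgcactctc
The TGFB2 promoter held CAGAC matches starting at -243 and -53 from the start site and a TATAAA match at -29. The FSTL1 promoter held GGCGCC matches at -204 and -165, and ID1 overlapping TATAAA matches, 1 on each strand, at -33 and -31. Over 27305 promoters of this length, 37.8% held CAGAC, 16.1% GGCGCC and 11.1% TATAAA. Of the 43 genes described here that have a promoter in the table, 16 held CAGAC, 14 held GGCGCC and 7 held TATAAA. These promoters were richer in G and C, with a median of 69.6% against 58% over all promoters. The palindrome GTCTAGAC was present in SMAD6 alone of the 43 and in 0.176% of all promoters, and the AP-1 motif TGACTCA in SMAD1 alone of the 43 and in 4.16% of all. No match overlapped a match to another of these motifs in the 3 promoters shown.

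Of 9 measured receptors, 1 (11.1%) was at least 1.5-fold lower, against 2.68% of all measured genes, and the median difference was -0.10. BMPR2, the type II receptor for BMPs, stood at 7.97 and 7.18, a difference of -0.80 or 1.74-fold lower. Its 3 other measured probe sets differed by -0.24, -0.04 and -0.59, so all 4 were lower, but by unequal amounts. ACVR1, a type I BMP and activin receptor also called ALK2, stood at 9.05 and 8.58 in its 1 probe set, a difference of -0.47.

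The TGF-beta receptors showed small differences. TGFBR2, the type II receptor, stood at 11.25 and 11.27, and its other probe set differed by 0.09. TGFBR1, the type I receptor, stood at 8.67 and 8.58, with identical values on both arrays in its other measured probe set. Both receptors differed by less than the SD between probe sets. TGFBR3, the co-receptor betaglycan, differed by 0.24 and 0.09, and the co-receptor ENG by 0.03. Of the activin receptors, ACVR1B differed by -0.12, ACVR2A by -0.25 and ACVR2B by 0.29, the last with -0.10 and -0.02 in its other probe sets.

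Among the 6 genes named above as reported or predicted miR-130 family targets, BMPR2 alone was at least 1.5-fold lower. This is 16.7%, against 2.68% of all measured genes. With the mean of probe sets none passed 1.5-fold, and BMPR2 differed by -0.41. The next largest difference in this set was that of ACVR1. SMAD4 differed by -0.21, TGFBR1 by -0.10, SMAD5 by 0.00 and TGFBR2 by 0.02. The median of the 6 genes was -0.15, against 0.03 over all measured genes. No transcript sequence was used here, so no pairing site was sought.

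Of the receptor SMADs, SMAD9 (also called SMAD8) had the largest difference. It stood at 5.34 and 4.09, a difference of -1.25, and its other probe set, below the floor on both arrays, read 4.59 and 4.56. The lower value of SMAD9 thus rests on 1 probe set near the floor. SMAD1 stood at 7.95 and 7.40, a difference of -0.56, while its other measured probe set had identical values on both arrays. SMAD5 was within 0.17 of no difference in all 4 of its measured probe sets.

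The receptor SMADs of the TGF-beta and activin branch showed differences close to 0. SMAD2, represented by its brightest probe set, differed by -0.03, and its other 4 measured ones by up to 0.13. SMAD3 differed by -0.03, with -0.24 as its lowest of 4 probe sets. The shared partner SMAD4 ranged from -0.21 to 0.03 over 3 probe sets. None of these 3 genes had a measured probe set beyond 1.5-fold.

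The inhibitory SMADs, themselves induced by the pathway, stayed within 1.5-fold. SMAD7, which blocks TGF-beta receptors, stood at 7.70 and 7.29, a difference of -0.41 in its 1 probe set. SMAD6, which acts mainly on BMP signals, stood at 7.78 and 7.53, a difference of -0.24, against 0.10 for a dimmer probe set and -0.07 as the mean of both. The ubiquitin ligase SMURF2, which removes receptors and SMADs, stood at 8.02 and 8.47 and at 6.04 and 6.35 in its 2 brighter probe sets. Its difference of 0.45, or 1.37-fold, was the highest of the 46 genes, with -0.05 in its remaining measured probe set. SMURF1 differed by 0.11, and all 4 of its measured probe sets were higher.

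**Figure D3:**
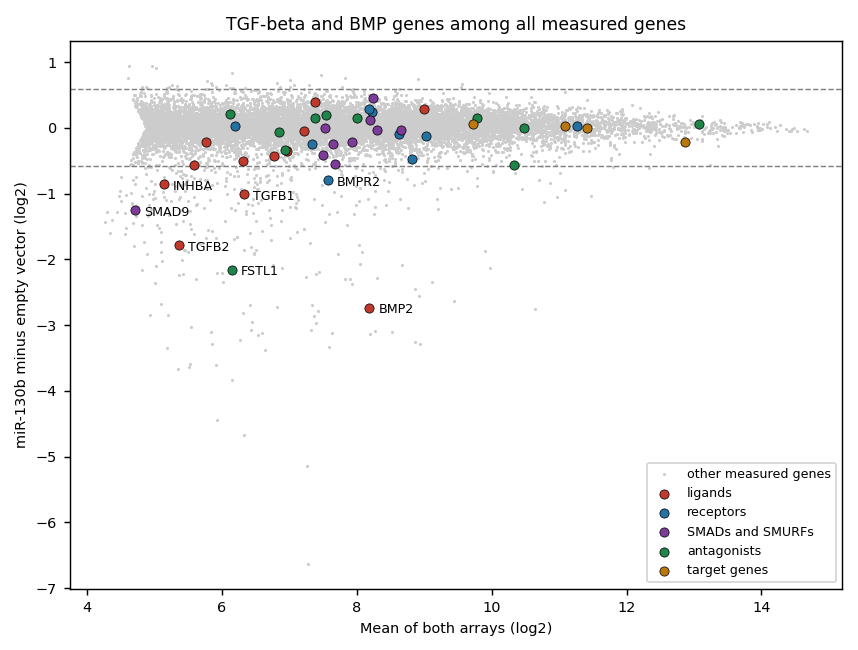
Difference miR-130b minus empty vector against the mean of both arrays (both log2) for 13260 measured genes (grey) and the 46 TGF-beta and BMP genes (coloured by role); dashed lines mark 1.5-fold. The 7 labelled genes lie below the lower line, BMP2 at a mean well above the floor and SMAD9 and INHBA at the dim end.

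Among antagonists, 1 of 11 measured genes (9.09%) was at least 1.5-fold lower, against 2.68% of all measured genes. The median difference was 0.05. FSTL1, a secreted glycoprotein related to follistatin, stood at 7.23 and 5.07, a difference of -2.16 or 4.46-fold lower. Its 2 other probe sets lay below the floor on both arrays and differed by 0.16 and 0.11. FSTL1 remained just above the floor with miR-130b and ranked 60 from the lowest of all measured genes. FST, follistatin itself, which traps activins, stood at 13.05 and 13.10, and its 3 probe sets differed by 0.03 to 0.28. FSTL3, a second activin trap, differed by -0.34 in its 1 probe set. The 3 follistatin-related genes thus spanned from -2.16 to 0.05.

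BAMBI, a pseudoreceptor without a kinase domain, stood at 10.62 and 10.05, a difference of -0.57, or 1.48-fold lower and just inside 1.5-fold. In the family named for latent TGF-beta binding, LTBP1, LTBP2 and LTBP4 differed by 0.15, 0.21 and 0.20. All 4 LTBP4 probe sets were higher, by 0.08 to 0.38. LTBP3 differed by -0.07 in its 2 brighter probe sets and by -0.81 in the dimmest. The nuclear corepressors SKI and SKIL differed by 0.15 each, with every measured probe set of both higher, and TGIF1 had identical values of 10.48 on both arrays in its brightest probe set.

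The 4 ID genes encode inhibitors of basic helix-loop-helix factors and are direct BMP-SMAD targets. ID1 stood at 12.97 and 12.76, ID2 at 11.42 on both arrays, ID3 at 11.08 and 11.10 and ID4 at 9.69 and 9.75. Their differences were -0.21, 0.00, 0.02 and 0.06. None reached 1.5-fold, and their median of 0.01 lay close to that of all measured genes. Over the same arrays the ligand BMP2 differed by -2.73 and BMP6 by 0.28.

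Other genes of the pathways were taken from lists chosen with earlier results of these data known, so their counts are not independent of these data. The lists held 106 further genes, of which 69 were measured, and 14 of these (20.3%) were at least 1.5-fold lower and 0 at least 1.5-fold higher, against 2.68% and 0.294% of all measured genes. Of the 14, 4 reached the floor on the empty vector array alone and could be counted only as lower, namely ACVR1C, CDKN2B, SPARC and HAMP. Of 10 other ligands measured, none passed 1.5-fold in either direction, and GDF3 and BMP8A differed most, by -0.35 and -0.25. GDF15, a stress-induced cytokine, stood at 13.13 and 12.96. Of 5 other receptors, 1 passed 1.5-fold. This was ACVR1C, the type I receptor ALK7, which differed by -0.79, from 5.55 to 4.76. Of 5 other extracellular antagonists, CRIM1, a transmembrane BMP antagonist, stood at 7.11 and 5.81, or 2.46-fold lower, and each of its 3 measured probe sets was lower.

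Of 6 measured genes for the activation of latent TGF-beta, 2 were at least 1.5-fold lower, against 2.68% of all measured genes, and 1 of 4 was without _x_at and _s_at probe sets, which are marked as open to cross-hybridisation. THBS1, which encodes the latency-opening matrix protein thrombospondin-1, stood at 7.02 and 5.33, or 3.24-fold lower, and its 3 measured probe sets differed by -1.69 to -2.72. ITGAV, the alpha subunit of the integrins that release TGF-beta, stood at 11.34 and 10.21, or 2.19-fold lower, in 1 probe set. The convertase gene FURIN differed by -0.21. Of 18 measured intracellular regulators, DAB2, an endocytic adaptor that binds SMADs and receptors, was lower, at 8.12 and 7.42, and 17 were within 1.5-fold. The 5 measured probe sets of DAB2 ranged from -1.17 to 0.14, and 4 were lower. FKBP1A, which binds type I receptors, was next with -0.34, or -0.59 as the mean of its probe sets.

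Genes known to be induced by TGF-beta held 9 of 21 measured members at least 1.5-fold lower and 0 at least 1.5-fold higher, with a median of -0.20. The share over all measured genes was 2.68% lower. Without _x_at and _s_at probe sets the list had 3 of 11, against 2.58% of the genes then measured. The 9 genes were TAGLN, COL1A2, CDH2 and VIM, with differences from -3.28 to -2.76, and THBS1, CDKN2B, SPARC, TIMP3 and TGFBI, with -1.69 to -0.80. The 3 measured probe sets of TAGLN, an actin-binding protein gene, disagreed, from -4.13 to -0.05. CDKN2B, the cell cycle inhibitor p15 of the TGF-beta growth arrest, stood at 5.78 and 4.30, and its other measured probe set differed by -0.61. TIMP3, a metalloproteinase inhibitor, was lower in all 4 probe sets. The other 12 measured genes lay within 1.5-fold: CCN2, a connective tissue growth factor, differed by -0.19, FN1 (fibronectin) by -0.20, JUNB by -0.29, SNAI1 by 0.00, ZEB1 by 0.07 and KLF10 by 0.34. COL1A1, a collagen gene, differed by -0.08, but its 4 measured probe sets ranged from -1.68 to 0.38, with a mean of -0.57. COL1A2 and VIM are also made by stromal cells.

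Of 11 measured genes known to be induced by BMPs, which include the 4 ID genes, SMAD6 and SMAD7, HAMP was the 1 beyond 1.5-fold. This is 9.09% at least 1.5-fold lower, against 2.68% of all measured genes. HAMP, which encodes the iron hormone hepcidin, stood at 7.89 and 4.66 in its 1 probe set, a difference of -3.22, and it was below the floor with miR-130b. HEY1 differed by -0.45, MSX1 by -0.19 and RUNX2 by 0.21. The list's median was -0.19.

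**Figure D4:**
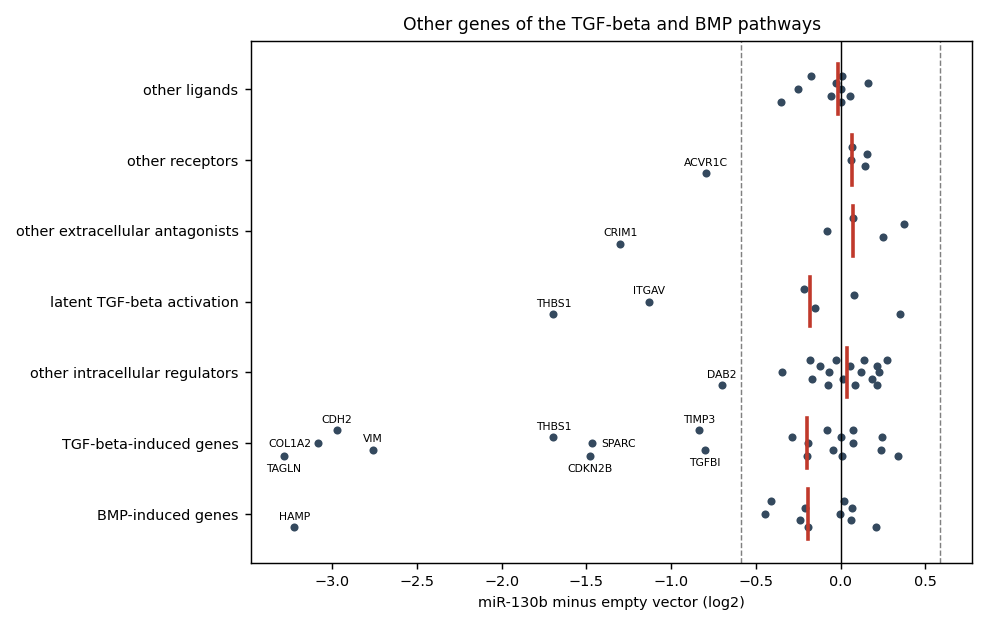
Difference miR-130b minus empty vector (log2) of the measured genes of 7 further pathway lists; each point is 1 gene, the red bar is the list's median and dashed lines mark 1.5-fold. Low points gather in the TGF-beta-induced list, and HAMP stands alone in the BMP-induced list; THBS1 is in 2 lists.

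The labelled cell type was checked against its markers. All 9 hepatocyte markers with a probe set were measured, among them SERPINA1 at 14.07 and 14.16 and TF at 13.67 and 13.70. Past 1.5-fold were TTR, with a difference of -3.34, and ALB, with -1.03. Of 10 stromal markers, 5 were measured, with COL3A1, LUM, PDGFRA, ACTA2 and POSTN below the floor on both arrays. The summed linear level of the 10 genes, those below the floor included, was 609 with empty vector and 371 with miR-130b. COL1A2, at 7.98 and 4.90, was the 1 stromal marker past 1.5-fold. The other measured stromal markers differed by -0.08 to 0.24 in the probe sets used for the sum. The corresponding sums were 513 and 566 for 7 endothelial markers, of which CDH5, VWF, KDR and TIE1 were below the floor on both arrays. PECAM1 was the brightest of the 7, at 8.51 and 8.72. For 6 leukocyte markers with a probe set the sums were 1010 and 836. Of those 6, PTPRC, CD3E, CD14 and CSF1R were below the floor on both arrays, and LYZ made up 876 and 702 of the sums, with differences of -0.32 and -1.72 in its 2 measured probe sets. The 3′ to 5′ signal ratio of ACTB, a sign of RNA integrity, was 1.95 on the empty vector array and 2.41 on the miR-130b array, and that of GAPDH was 1.37 and 1.52. The part of these differences in the lower values of the ligands, FSTL1 and the TGF-beta-induced genes was not tested. In bulk RNA, fewer cells with a transcript and less transcript per cell cannot be told apart.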

How the data were processed

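The data are 1 table that the authors deposited, holding log2 expression of 54675 probe sets on both arrays. Per the submitters' processing notes the tool was RMA (background correction, normalization, probe summary); its version and settings are not given in those notes. RMA compresses the fold of dim probe sets. Genes were named through GEO's platform annotation, and 48 of 48 Entrez identifiers matched the same symbol in RefSeq.

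From the deposited log2 values the difference miR-130b minus empty vector was taken per probe set. The floor was the median of 54613 non-control probe sets over both arrays. Folds of 1.5 and 2 are rules of size, not tests, and precision is limited by the 2 arrays. The members and lists were chosen with earlier results of these data known. All members are named whatever their values, with, from each further list, every gene beyond 1.5-fold and otherwise the 2 largest differences. Other genes named were chosen after their values were seen. The computation was tested on simulated data. The results were also computed with loess centring (span 0.3), without a floor, with averaged probe sets, without _x_at and _s_at probe sets, and with the floor raised to the 75th percentile. Python 3.11.15, numpy 2.4.6, pandas 2.3.3 and statsmodels 0.14.6 were used.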

Additional observations from a re-analysis of the deposited data

How the results depend on the processing

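With 7 genes at least 1.5-fold lower as the reference, the count was 7 with no floor, 5 with the mean of measured probe sets, 5 without _x_at and _s_at probe sets, 8 after loess centring and 3 of 36 with the floor at the 75th percentile (6.98), which removes TGFB1, TGFB2, INHBA and SMAD9. It was 0 in the higher direction under all 5 alternatives. The median ranged from -0.11 after loess centring to 0.00 without _x_at and _s_at probe sets, where that of all measured genes was 0.04. BMP2, FSTL1 and, where kept, TGFB2 and SMAD9 stayed beyond 2-fold lower under all 5 alternatives. TGFB1 was 0.00 without _x_at and _s_at probe sets and INHBA was not measured. Among the further lists, counts of genes at least 1.5-fold lower changed by more than 1.5 times in 6 cases. With the floor at the 75th percentile the other receptors had 0 because none was measured. Without _x_at and _s_at probe sets the other extracellular antagonists had 0, latent TGF-beta activation 1 and the TGF-beta-induced genes 3 of 11. With the mean of probe sets the intracellular regulators had 2 (FKBP1A added) and the miR-130 family targets 0. These follow from which probe sets were kept or averaged. No paired analysis was possible because each group holds 1 array. The table gives no detection call, so values near the floor may be background.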

Other observations

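Several probe sets had exactly the same deposited value on both arrays. This was so for 10 of the 144 probe sets of these genes, or 6.94%, and for 4.20% of all non-control probe sets. Among the 106 measured probe sets of these genes, 8 were identical on both arrays, in TGFB1, TGFBR1, SMAD1, SMAD2, SMAD5, LTBP2 and, for 2 probe sets, TGIF1. For SMAD5 and TGIF1 an identical probe set stands for the gene.

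Probe sets of 1 gene often differed in direction. Of the 32 genes with at least 2 measured probe sets, 6 were lower in all of them, namely TGFB2, BMP1, BMP2, ACVR2A, BMPR2 and LTBP3. In 10 all were higher, and the other 16 were mixed or held an identical probe set. The same counts were not taken over all 6047 genes with several measured probe sets. They therefore cannot be called particular to these genes. Over all 106 measured probe sets, 49 were lower and 49 higher. Of the 106, 12 (11.3%) were at least 1.5-fold lower and 0 at least 1.5-fold higher. Among the 12, the measured TGFB2, INHBA and SMAD9 probe sets reached the floor on the empty vector array alone. So did a BMPR2 probe set, at 4.52 with miR-130b, and an LTBP3 probe set, at 4.87. Probe sets of this kind enter the count only as lower. Of all 23352 measured probe sets with 1 symbol, 44.7% were lower and 53.0% higher, 2.83% at least 1.5-fold lower and 0.330% at least 1.5-fold higher.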
